A study of Caenorhabditis elegans with 6 samples.

Results

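The genes described here encode the mitochondrial respiratory chain, the ATP synthase and a few of their assembly factors in Caenorhabditis elegans, and their transcripts were compared between wild-type worms of strain N2 and worms carrying the tm1978 allele of hlh-30. Members were all genes whose symbol begins with a prefix used for these proteins (nuo, ndu, gas, sdha to sdhd, ucr, isp, cyc, cox, atp, asb and asg) and that are read by a probe set annotated with that gene alone. This gave 65 of the 17118 genes read in that way. They comprised 31 genes of complex I, 4 of complex II, 8 of complex III with cytochrome c, 13 of complex IV and 9 of the ATP synthase. The prefix cox also takes in 6 assembly factors of complex IV that are not subunits of it. No gene of the mitochondrial genome was matched, and subunits known only by a sequence name were not covered, so the account concerns named, nuclear-encoded members.

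Transcripts were measured on 6 Affymetrix arrays, 3 of wild type and 3 of the mutant. Each array carried labelled RNA of whole animals grown at 20 °C, in which the embryo, L1 larva and L2 larva RNA of a biological replicate had been combined. A value is therefore an average over tissues and stages, and fewer cells of a type, fewer animals of a stage and less RNA per cell cannot be told apart. HLH-30 is the worm counterpart of mammalian TFEB, a transcription factor known to activate lysosomal and autophagy genes. The labels do not state how far the mutant strain had been outcrossed.

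In the respiratory chain, complexes I and II take electrons from NADH and succinate and pass them to ubiquinone, complex III passes them on to cytochrome c, and complex IV hands them to oxygen. The proton gradient built by complexes I, III and IV drives the ATP synthase. Each of the large complexes combines a few core subunits that carry the catalytic centres with many accessory or supernumerary subunits that serve assembly and stability. In worms, mutations of gas-1, isp-1 and other members are known to change lifespan and stress resistance.

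Deposited log2 values ran from 2.04, a floor shared by all arrays, to 16.95. Markers of embryo and germline (14 of 18), body wall muscle (15 of 15), intestine (11 of 11), neurons (10 of 12) and hypodermis (6 of 7 on the array) passed the filter on dim signals. At its brightest probe set hlh-30 itself read 12.05, 12.07 and 12.34 in wild type and 10.52, 10.65 and 9.66 in the mutant, with no overlap (limma adjusted p 0.128). The arrays wild type 3 and mutant 3 stood apart from the others of their genotype, so many values below are given both over all 6 arrays and with this pair left out.

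No member of the respiratory chain passed the test. Of the 62 members tested, 0 had an adjusted p under 0.05 in limma, where 0.143% of all 9113 genes tested did (0.132% lower and 0.011% higher), and the lowest adjusted p of a member was 0.299. At an unadjusted limma p under 0.05 there were 8 members (12.9%), all of them lower in the mutant, against 8.59% of all genes (6.94% lower and 1.66% higher). These were gas-1, nuo-1, nuo-5, nduf-11 and nduf-9 of complex I, ucr-2.1 and cyc-1 of complex III, and asb-2 of the ATP synthase. After median centring or quantile normalization, and without wild type 1 or mutant 1 in turn, the members' share was below that of all genes (values in the last section). The 3 mutant arrays lay wholly below the 3 wild-type arrays for 10 tested members (16.1%), against 9.87% of all genes, and wholly above them for 1, against 3.76%. For any one gene, the smallest p that an exact two-sided permutation of these arrays allows is 0.1.

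Fitted changes, as mutant minus wild type on the log2 scale, ran from −0.34 for gas-1 to 0.29 for ndua-13, with a median of 0.0034 over the members and −0.010 over all genes tested. They ran from −0.85 for cox-17 to 0.068 for cox-4 when the arrays numbered 3 were left out, and ndua-13 then read 0.067. Over all 6 arrays the 95% interval of limma lay within a 2-fold change in either direction for 59 of 62 members (95.2%), against 79.4% of all genes. The exceptions were asb-1 (−1.25 to 0.82), cox-17 (−1.37 to 1.26) and cox-19 (−1.41 to 1.89), the 3 tested members with the largest standard errors.

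**Figure D1:**
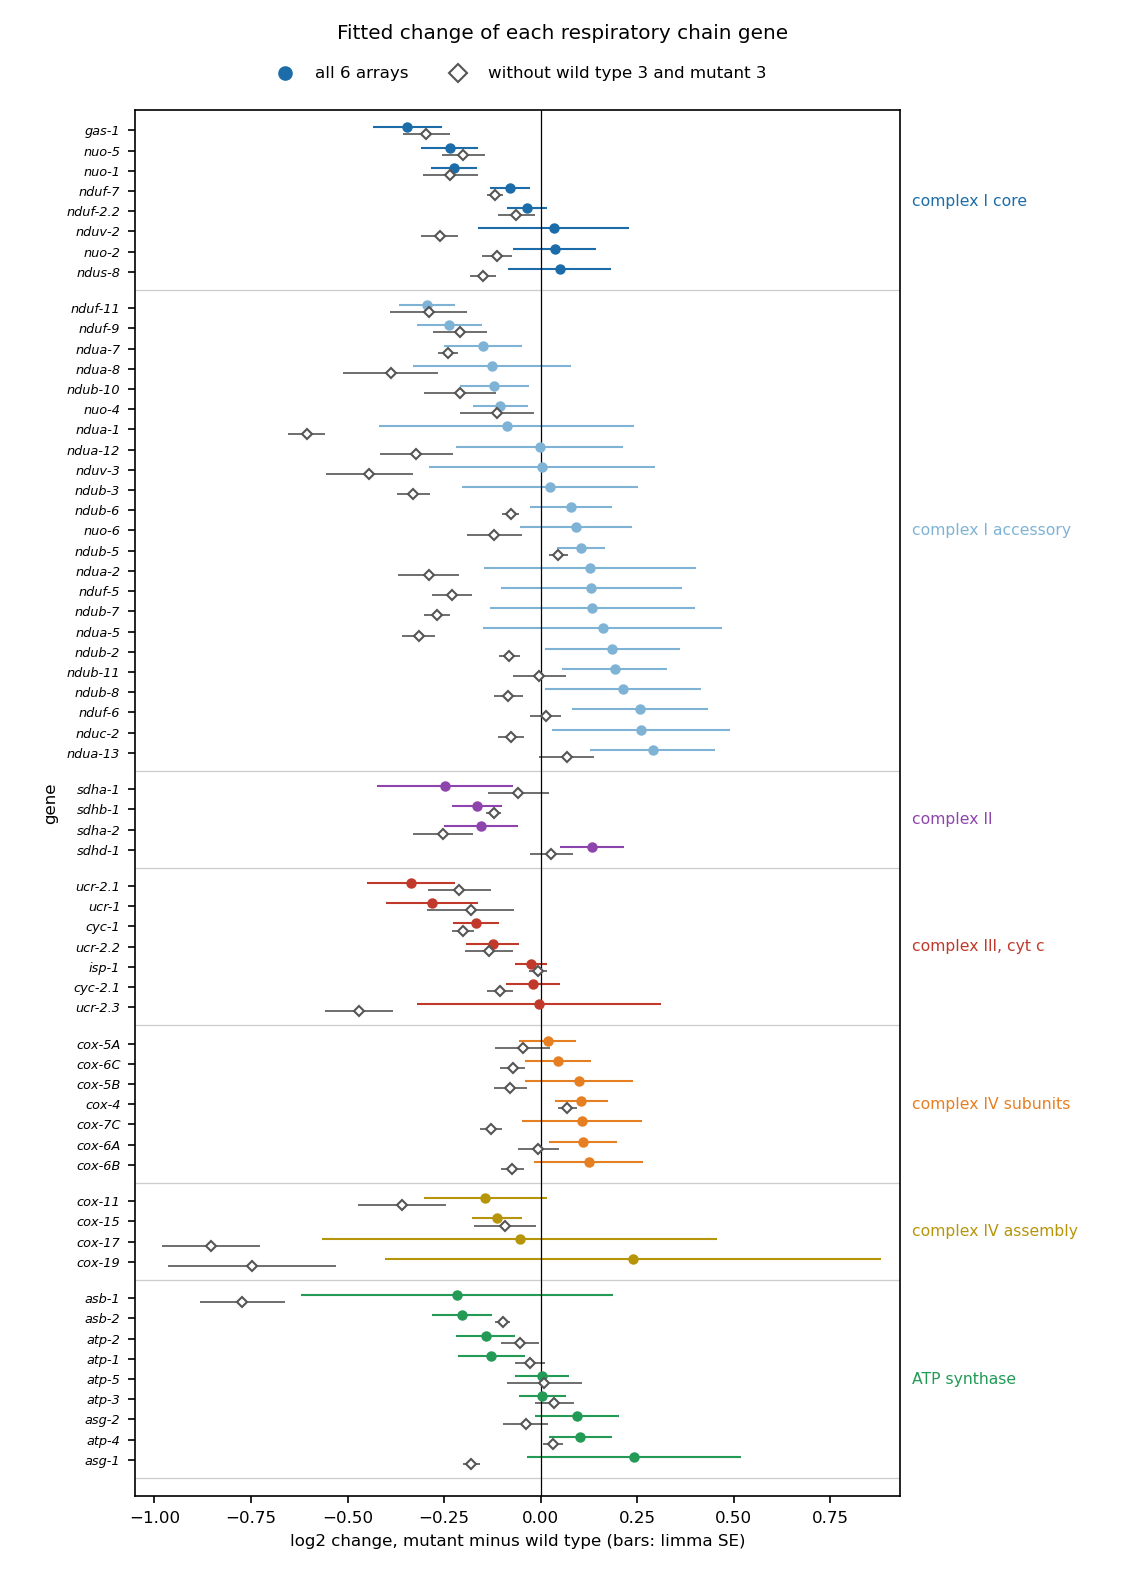
Fitted log2 change (mutant minus wild type) of the 62 tested members, grouped by complex, as filled circles with limma standard errors for all 6 arrays and as open diamonds for the fit without wild type 3 and mutant 3. With all arrays the changes lie between −0.34 and 0.29; without the arrays numbered 3, 54 of the 62 lie below 0.

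Of the 8 core subunits of complex I, 3 had every mutant array below every wild-type array: gas-1, nuo-1 and nuo-5, where 9.87% of all genes did. gas-1 (Entrez gene 181646), a core subunit of the complex, read 13.29, 13.16 and 13.14 in wild type and 12.95, 12.91 and 12.70 in the mutant, and did not overlap. The wild-type mean was 13.20 ± 0.081 (SD, n = 3), the mutant mean was 12.85 ± 0.13 (SD, n = 3), and mutant minus wild type was −0.34 (SE 0.089; limma adjusted p 0.338). Its dimmer probe set gave −0.18, with overlap.

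nuo-1 (Entrez gene 174696), the counterpart of the NADH-binding NDUFV1, read 11.97, 11.81 and 11.91 in wild type and 11.67, 11.64 and 11.71 in the mutant. The difference was −0.22 (SE 0.059; limma adjusted p 0.34), with no overlap, and it was −0.23 without the arrays numbered 3. nuo-5 (Entrez gene 178735), the counterpart of the iron-sulphur subunit NDUFS1, read 10.48, 10.52 and 10.44 against 10.36, 10.25 and 10.13. The groups did not overlap, and the difference was −0.24 (SE 0.073; limma adjusted p 0.434). The dimmer probe set of nuo-5 gave −0.092, with overlap. For none of gas-1, nuo-1 and nuo-5 was the limma adjusted p under 0.05.

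The other core subunits of complex I showed less. nduf-7, the counterpart of NDUFS7, differed by −0.079 at its brighter probe set and −0.27 at its dimmer, with overlap at both. nuo-2, nduv-2 and ndus-8, the counterparts of NDUFS3, NDUFV2 and NDUFS8, had fitted changes of 0.036, 0.033 and 0.049 with all arrays and −0.11, −0.26 and −0.15 without the arrays numbered 3. nduf-2.2, a paralogue of gas-1, was dim, between 4.99 and 5.10 on all 6 arrays, and read the same value on 3 of them. Over the 8 core members the median change was −0.057, with 5 below 0, turning to 0.0036 after each array was centred on its median. Without the arrays numbered 3 all 8 were below 0 (median −0.18), where 55.7% of all genes were.

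With all 6 arrays, accessory subunits of complex I mostly followed another pattern. Of the 23, 15 had a fitted change above 0 and 8 below 0 (median 0.091), where 52.1% of all genes were below 0. For 18 of the 23, mutant 3 was the brightest of all 6 arrays, against 27.9% of all genes. ndua-5 shows it: wild type read 12.96, 12.93 and 12.36, and the mutant 12.59, 12.67 and 13.47. Wild type 3 was thus the lowest array and mutant 3 the highest, while mutants 1 and 2 lay under wild types 1 and 2. The difference was 0.16 (SE 0.31; limma adjusted p 0.886) over the 6 arrays and −0.32 when the pair numbered 3 was left out. Without that pair, 20 of the 23 accessory subunits were below 0 (median −0.21), where 55.7% of all genes were. Their median was −0.12 without mutant 3 alone and −0.036 without wild type 3 alone.

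ndua-1 read 12.95, 13.05 and 12.22 in wild type and 12.40, 12.40 and 13.16 in the mutant, again lowest on wild type 3 and highest on mutant 3. Its difference was −0.088 (SE 0.33) with all arrays and −0.61 (SE 0.049) without the arrays numbered 3, where its limma adjusted p of 0.054 was the lowest of any member. That small error rests in part on mutants 1 and 2, whose deposited values were identical. Identical values on at least 2 arrays occurred for 11 tested members (17.7%) and for 41% of all genes.

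Among the other accessory subunits, nduf-11, the counterpart of NDUFA11, read 12.39, 12.34 and 12.34 in wild type and 12.19, 11.96 and 12.04 in the mutant, without overlap. Its difference was −0.29 (SE 0.072; limma adjusted p 0.299) with all arrays and −0.29 without the arrays numbered 3. The dimmer probe set of nduf-11 gave −0.15, with overlap. nduf-9, the counterpart of NDUFA9, read 12.70, 12.57 and 12.54 against 12.38, 12.48 and 12.24, also without overlap (difference −0.24, limma adjusted p 0.502). The dimmer probe set of nduf-9 gave −0.11, with overlap. ndub-5, for which mutant 3 was again the brightest array, was the sole tested member with every mutant array above every wild-type array, at 13.35, 13.35 and 13.51 against 13.32, 13.29 and 13.29, a difference of 0.10 (SE 0.062; limma adjusted p 0.694), or 0.046 without the arrays numbered 3.

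**Figure D2:**
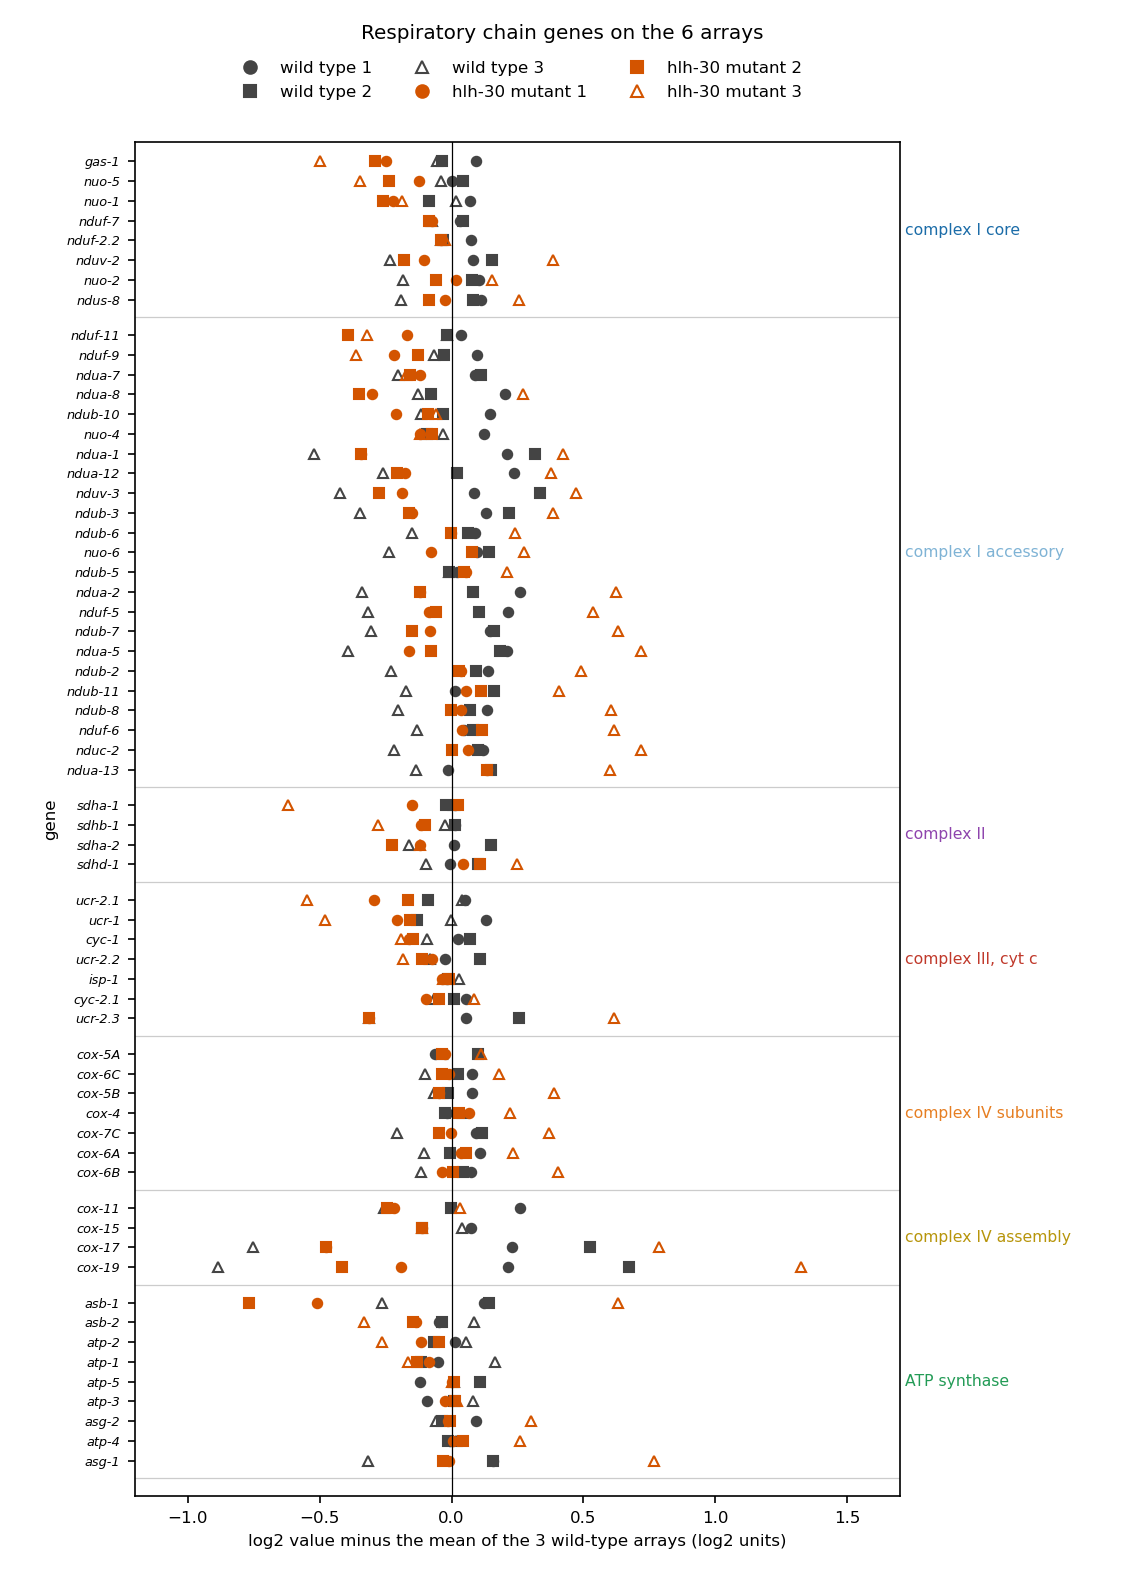
Log2 value of each tested member on each array, drawn as the difference from the mean of its 3 wild-type arrays; dark grey symbols are wild type, orange symbols the hlh-30 mutant, and open triangles the arrays numbered 3. For 18 of the 23 accessory subunits of complex I mutant 3 is the rightmost symbol, while for gas-1, nuo-5, ucr-2.1 and asb-2 it is the leftmost.

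Complex II, succinate dehydrogenase, also belongs to the citric acid cycle. Its iron-sulphur subunit sdhb-1 (Entrez gene 174482) read 13.60, 13.60 and 13.56 in wild type and 13.47, 13.48 and 13.30 in the mutant. The groups did not overlap, and the difference was −0.17 (SE 0.065; limma adjusted p 0.558). The dimmer probe set of sdhb-1 gave −0.14, with overlap. The flavoprotein subunit sdha-1 read 12.13, 12.10 and 12.13 against 11.97, 12.14 and 11.50, with mutant 3 far below the other arrays. Its difference was −0.25 (SE 0.18) over all arrays and −0.058 without those numbered 3. Its dimmer probe set read 0.052.

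The paralogue sdha-2 was dim, between 5.24 and 5.62, with a difference of −0.15 (SE 0.095), or −0.25 without the arrays numbered 3. sdhd-1, a membrane anchor, differed by 0.13 (SE 0.084; limma adjusted p 0.711), or 0.027 without the arrays numbered 3. The median over the 4 genes was −0.16.

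In complex III the 7 tested members, cytochrome c included, had fitted changes below 0, with a median of −0.12, where 52.1% of all genes were below 0. After median centring the median was −0.063, with cyc-2.1, ucr-2.3 and isp-1 above 0. ucr-2.1 (Entrez gene 181374), a core protein that faces the matrix, read 12.82, 12.68 and 12.81 in wild type and 12.48, 12.61 and 12.22 in the mutant. Each mutant array was below each wild-type array, and the difference was −0.34 (SE 0.11; limma adjusted p 0.474), or −0.21 without the arrays numbered 3.

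ucr-1, the other type of core protein, read 12.91, 12.66 and 12.78 against 12.58, 12.63 and 12.31, without overlap (difference −0.28, SE 0.12, limma adjusted p 0.596), with −0.18 without the arrays numbered 3. The catalytic cytochrome of the complex, encoded by cyc-1 (Entrez gene 172582), read 12.30, 12.34 and 12.18 in wild type and 12.11, 12.12 and 12.08 in the mutant. These also did not overlap, at a difference of −0.17 (SE 0.060; limma adjusted p 0.499), with −0.30 at its dimmer probe set. At its brighter probe set isp-1, the Rieske iron-sulphur protein, read 14.57, 14.57 and 14.62 against 14.55, 14.58 and 14.55. Its difference of −0.026 had a 95% interval from −0.13 to 0.082. The dimmer probe set of isp-1 gave −0.078 (SE 0.058), without overlap.

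Of the related core proteins, ucr-2.2 differed by −0.12 (SE 0.069) with overlap at its brighter probe set. At its dimmer probe set it differed by −0.22 (SE 0.081) without overlap. ucr-2.3 read 9.03, 9.23 and 8.66 in wild type and 8.66, 8.66 and 9.58 in the mutant. It was highest on mutant 3, and its 3 lowest values were identical, with a difference of −0.0041 (SE 0.32) over all arrays and −0.47 without the arrays numbered 3. cyc-2.1, which encodes cytochrome c, differed by −0.020 (95% interval −0.20 to 0.16), or −0.11 without the arrays numbered 3. Its paralogue cyc-2.2 stood at the floor on all 6 arrays and was not tested.

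The 7 nuclear-encoded subunits of complex IV had small fitted changes above 0, from 0.018 for cox-5A to 0.12 for cox-6B, and none was near the threshold, with a lowest limma adjusted p of 0.717. Mutant 3 was the brightest array for each of them. cox-6B read 14.81, 14.78 and 14.62 in wild type and 14.70, 14.75 and 15.14 in the mutant, overlapping, at a difference of 0.12 (SE 0.14). Without the arrays numbered 3 it read −0.073, and 6 of the 7 were below 0 (median −0.073). cox-4 was the exception at 0.068, against 0.10 (SE 0.069) with all arrays. cox-5B and cox-6A differed by 0.099 (SE 0.14) and 0.11 (SE 0.088), and by −0.079 and −0.0065 with that pair left out.

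Among the assembly factors of complex IV, cox-17 and cox-19 had the largest standard errors of all tested members. cox-17, a copper chaperone, read 9.61, 9.90 and 8.62 in wild type and 8.90, 8.90 and 10.16 in the mutant. cox-19, another copper-binding factor, read 9.65, 10.11 and 8.55 against 9.25, 9.02 and 10.76. Both were lowest on wild type 3 and highest on mutant 3.

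Their differences were −0.055 (SE 0.51) and 0.24 (SE 0.64) over all arrays and −0.85 and −0.75 without the arrays numbered 3 (limma adjusted p 0.089 and 0.191). cox-11, which inserts copper, differed by −0.14 (SE 0.16), or −0.36 without the arrays numbered 3, and cox-15, the haem A synthase, by −0.11 (SE 0.064). The deposited value of cox-15 was the same on all 3 mutant arrays and wild type 2. cox-10, the haem O synthase, stood at the floor on all arrays, and cox-18 exceeded the log2 minimum of 4 on wild type 1 alone, so neither was tested.

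Among the genes of the ATP synthase, asb-2 (Entrez gene 180718), a subunit b of the peripheral stalk, read 12.25, 12.26 and 12.38 in wild type and 12.16, 12.15 and 11.97 in the mutant. The groups did not overlap, and the difference was −0.20 (SE 0.078; limma adjusted p 0.544), or −0.098 without the arrays numbered 3. The other subunit b, asb-1, which is known from the germline, read 9.31, 9.33 and 8.92 against 8.67, 8.42 and 9.81. Mutants 1 and 2 were below all wild-type arrays and mutant 3 above them, so its difference was −0.22 (SE 0.40) over all arrays and −0.77 (SE 0.11; limma adjusted p 0.086) without those numbered 3.

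The alpha and beta subunits of the catalytic head, atp-1 and atp-2, differed by −0.13 (SE 0.087) and −0.14 (SE 0.076), with overlap, and by −0.027 and −0.054 without the arrays numbered 3. The stalk subunits atp-3, atp-4 and atp-5 differed by 0.0037 (95% interval −0.15 to 0.16), 0.10 (−0.11 to 0.31) and 0.0036 (−0.18 to 0.18). asg-1 and asg-2, which encode subunit g of the membrane part, were highest on mutant 3, at 0.24 (SE 0.28) and 0.094 (SE 0.11). Without the arrays numbered 3 they read −0.18 and −0.039. The median over the 9 genes was 0.0036.

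The opposite excursions of wild type 3 and mutant 3 thus ran through much of the chain. Of the 62 members, 50 (80.6%) were lower on wild type 3 than on the mean of wild types 1 and 2, and 44 (71%) were higher on mutant 3 than on the mean of mutants 1 and 2. Over all genes these shares were 56.2% and 44.6%. Both held for 40 members (64.5%) against 33.2% of all genes.

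The classes differed in size. The median deviations on wild type 3 and mutant 3 were −0.31 and 0.54 for accessory subunits of complex I, −0.76 and 0.76 for the assembly factors of complex IV and −0.15 and 0.20 for its subunits. They were −0.098 and 0.035 for the core subunits of complex I and −0.099 and −0.039 for complex III. Mutant 3 was the lowest of all arrays for 12 members (19.4%, against 31.1% of all genes), among them gas-1, sdha-1, sdhb-1, ucr-1, ucr-2.1, asb-2 and atp-2.

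**Figure D3:**
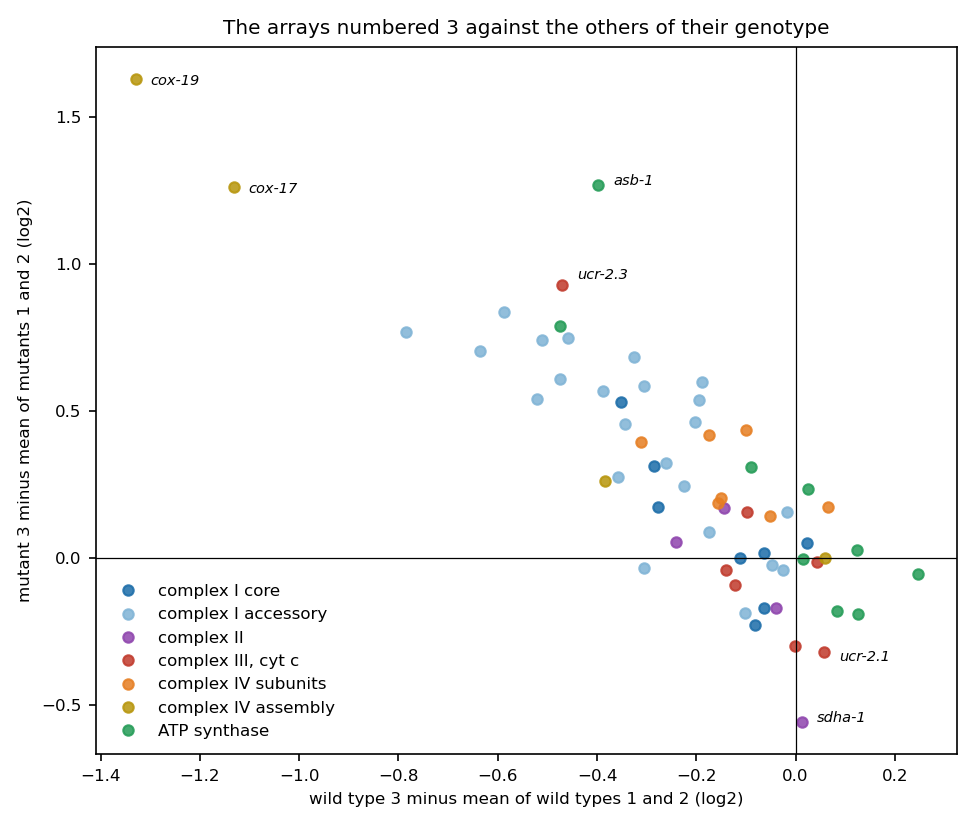
Each point is a tested member; the horizontal axis gives wild type 3 minus the mean of wild types 1 and 2, the vertical axis mutant 3 minus the mean of mutants 1 and 2, both in log2 units, coloured by class. cox-19, cox-17, asb-1 and ucr-2.3 lie highest, 40 of the 62 points lie left of and above 0, and sdha-1 and ucr-2.1 lie below 0 on the vertical axis.

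Markers of early embryo and germline moved on the same arrays. Of the 14 tested, 12 were lower on wild type 3 (median −0.48) and 12 were higher on mutant 3 (median 1.34). Their mean log2 level ranged from 7.79 to 8.54 over the wild-type arrays and from 7.84 to 9.28 over the mutant arrays. The listed markers oma-1, par-2, egg-1 and chs-1 stayed below the log2 minimum of 4 and were not tested. Of these, par-2, egg-1 and chs-1 each read an unchanged value on all 6 arrays. Body wall muscle markers went the other way, with a median of 0.33 on wild type 3 and −0.31 on mutant 3. Their mean level was 13.32 to 13.72 in wild type and 12.83 to 13.14 in the mutant. Neuron markers had medians of 0.31 and −0.25, with unc-31 at the floor. The part of the stage or tissue makeup of these samples in the values of the chain was not tested.

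**Figure D4:**
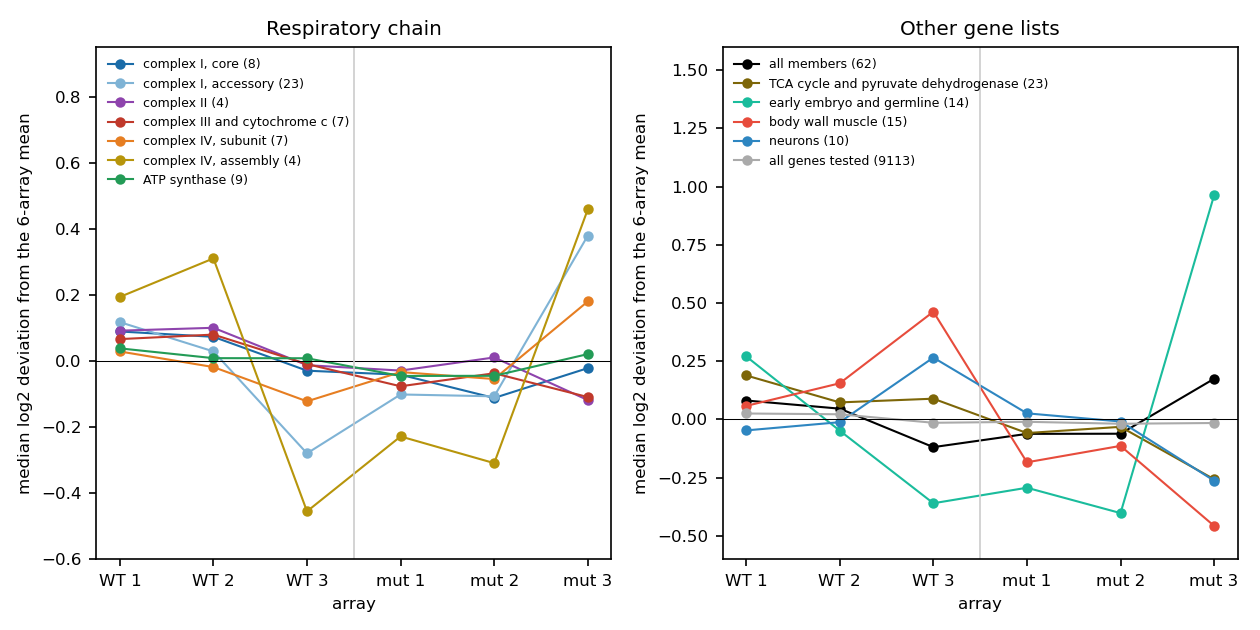
Median deviation of the genes of each class from their own 6-array mean, in log2 units, on each array, with the number of tested genes in brackets; the left panel shows classes of the respiratory chain and the right panel other gene lists. Accessory subunits of complex I and assembly factors of complex IV dip on wild type 3 and peak on mutant 3, as do early embryo and germline markers, while muscle and neuron markers do the reverse.

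Without wild type 3 and mutant 3, the members shifted below 0 together. Of the 62, 54 (87.1%) had a fitted change below 0, against 55.7% of all genes, and the median was −0.12, against −0.031. In that fit 24 members (38.7%) had an unadjusted limma p under 0.05, all lower, against 26.1% of all genes, with 19.1% lower. Mutants 1 and 2 lay below wild types 1 and 2 for 44 members (71%), against 34.8% of all genes. After adjustment 0 members were called, against 2.24% of all genes (1.94% lower). All 24 members whose sign differed between the fits were above 0 with all arrays.

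All 8 members with an unadjusted p under 0.05 over the 6 arrays were below 0 in this smaller fit too, and 4 of them again had an unadjusted p under 0.05. Early embryo and germline markers were also lower there, with 11 of 14 below 0 and a median of −0.39, and their part in this shift was not tested.

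Of the 18 members with several tested probe sets, 14 had changes of the same sign at all of them; atp-5, ndua-7, nuo-4 and sdha-1 did not. A total of 34 tested members were read by probe sets that may also bind related transcripts, and 28 by plain ones. In the order of genes in RefSeq, 2 pairs of members are direct neighbours, sdha-2 with ndua-13 and cox-6B with nduc-2. The first pair differed in sign at −0.15 and 0.29, and the second read 0.12 and 0.26, or −0.073 and −0.077 without the arrays numbered 3.

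Of the 23 genes of the citric acid cycle and pyruvate dehydrogenase, which feed the chain with electrons, 0 were called and 8 had an unadjusted limma p under 0.05, all lower, against 6.94% of all genes. In 21 the fitted change was below 0, against 52.1% of all genes, with a median of −0.20. For 10 the mutant arrays lay wholly below the wild-type arrays, against 9.87% of all genes. The arrays numbered 3 left out, 22 were below 0 (median −0.13), against 55.7%. pdhb-1, the beta subunit of pyruvate dehydrogenase, read 11.32, 11.15 and 11.15 in wild type and 10.68, 10.72 and 10.44 in the mutant, a difference of −0.60 (SE 0.10; limma adjusted p 0.152). dld-1, the dihydrolipoamide dehydrogenase shared by such complexes, read 10.73, 10.65 and 10.79 against 10.35, 10.35 and 10.30 (difference −0.39, SE 0.055, limma adjusted p 0.108). In both genes every mutant array was below every wild-type array. Body wall muscle markers were lower alongside, with 14 of 15 below 0 and a median of −0.53, or −0.23 without the arrays numbered 3. Intestine markers had 9 of 11 below 0 (median −0.17, or −0.11 without those arrays). Neuron markers had 10 of 10 below 0 (median −0.15), but 2 of 10 without those arrays (median 0.048). Hypodermis markers went the other way, with 5 of 6 above 0 (median 0.074, or 0.036 without those arrays). Early embryo and germline markers had 10 of 14 above 0 (median 0.13), but 11 of 14 below 0 without those arrays (median −0.39). Of the 15 muscle markers, 8 had an unadjusted limma p under 0.05, all lower, against 6.94% of all genes. Among them tnt-2 was called (difference −1.01, limma adjusted p 0.035), where 0.143% of all genes were. Of the intestine markers 2 had such an unadjusted p, lower as well. For neuron, hypodermis, and early embryo and germline markers the count was 0. The part of these tissues and stages in the values of these enzymes and of the core subunits above was not tested.

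In the 7 tested genes of ubiquinone synthesis, 4 were below 0 (median −0.016) and 0 were called. coq-3, a methyltransferase of that pathway, differed by −0.26 (SE 0.097) and coq-8 by −0.27 (SE 0.13). Among 12 tested assembly factors and carriers, 7 were below 0 (median −0.11) and 0 were called. mai-1, a homologue of the mitochondrial ATPase inhibitor, read 8.86, 9.23 and 9.04 against 8.50, 8.43 and 8.50, a difference of −0.57 (SE 0.11; limma adjusted p 0.19). phb-2, a prohibitin of the inner membrane, differed by −0.29 (SE 0.056; limma adjusted p 0.198), with the same deposited value on all mutant arrays.

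Of 12 tested genes of mitochondrial stress and genome upkeep, 7 were below 0 (median −0.051) and 0 were called. The mitochondrial chaperone hsp-6 differed by −0.35 (SE 0.15; limma adjusted p 0.596). sod-3, a mitochondrial superoxide dismutase, read 6.40, 6.37 and 6.28 in wild type and 6.90, 7.53 and 7.40 in the mutant, higher on every mutant array (difference 0.93, SE 0.18, limma adjusted p 0.198).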

How the data were processed

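Values were deposited by the authors on a log2 scale. GCRMA and limma are named in the submitters' processing notes, with versions and settings not given in the sources used here. Arrays were grouped by the genotype in their titles. Per array 22625 probe sets were present, and the 77 controls were left out. The filter kept the 12060 probe sets that reached a log2 value of 4 on 3 or more of the 6 arrays. A gene was read by its single-gene probe set with the highest mean over the arrays, and all 65 members matched RefSeq by Entrez number. Mutant and wild type were set against each other with limma 3.58.1 (lmFit, eBayes) under R 4.3.3, without covariates. Adjusted p-values are Benjamini-Hochberg values over the 12060 probe sets, read at 0.05. The fit was tested on simulated data.

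The members and lists were chosen with earlier results of these data known, so no list was tested. The rule for named genes took up to 4 members per complex with the smallest p, members of paralogue sets, and up to 2 genes of each related list. nduf-9, ndua-1, ndua-5, ndua-13, ndub-5, isp-1, nuo-2, nduv-2, ndus-8 and other members named in passing were chosen after their values were seen, and so were the classes within complexes. Alternatives were other filters, scalings, variance models and probe set choices, array weights, a replicate block, each array left out and, chosen after seeing the data, both arrays numbered 3 left out. Depth has no meaning for arrays, and their number limits the precision. Sequences and promoter motifs were not analysed here.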

Additional observations from a re-analysis of the deposited data

How the results depend on the processing

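No member was called in the alternatives other than array quality weights, where 2 were, gas-1 (adjusted p 0.042) and cyc-1 (0.038), among 589 genes called; those weights gave wild type 3 and mutant 3 the lowest values, 0.27 and 0.12. With the weights 25 of 62 members had an unadjusted p under 0.05, against 29.4% of all genes, and 52 were below 0. The share of all genes below 0 is not given for the alternatives other than without the arrays numbered 3. Over all genes the median change with the weights was −0.028. Medians were then −0.20 for complexes I and III, −0.069 for complex IV and −0.031 for the ATP synthase. Without the arrays numbered 3 the corresponding values were 24, 54, −0.21, −0.18, −0.079 and −0.039, with −0.090 for complex II and −0.12 for all members. The count at an unadjusted p under 0.05 was 1 of 62 after median centring (7.53% of all genes) and 2 of 62 after quantile normalization (7.29%). In both, the members' share was below that of all genes. The count was 5 of 33 with plain probe sets alone (16 below 0), against 7.99% of all genes. With the replicate block it was 3 of 62, against 6.28%. Same-numbered arrays deviated with correlations of −0.41, −0.42 and −0.52. These cannot decide whether the numbers pair the samples, because the deviations are from group means that include wild type 3 and mutant 3. The labels do not state a pairing. Over all genes, 0 were called with the replicate block, 1 without the filter, 29 with the mean of all probe sets, 19 after quantile normalization, 15 after median centring and 13 as reported. The median of complex III was −0.063 after median centring, −0.17 with the mean of all probe sets, −0.075 with no filter and −0.19 with plain probe sets. The median of the ATP synthase was 0.065, −0.055 and 0.094 after median centring, quantile normalization and with plain probe sets, and that of complex II was −0.25 with plain probe sets. Of the other genes named, pdhb-1, dld-1, mai-1 and phb-2 were called with the weights, and pdhb-1 also with the mean of all probe sets (adjusted p 0.041).

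Leaving out each array in turn gave 0 called members, 3 to 9 at an unadjusted p under 0.05 (3 without wild type 1, 4 without mutant 1, 5 without wild type 2 or mutant 2) and 25 to 50 below 0, the 50 without mutant 3; without wild type 3 there were 42. Medians ranged from −0.088 to 0.085 over all members, −0.12 to 0.12 for complex I, −0.21 to −0.086 for complex II, −0.16 to −0.071 for complex III, −0.030 to 0.14 for complex IV and −0.055 to 0.0087 for the ATP synthase.

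Single genes not called changed sign as follows. With array weights: cox-6B −0.069, cox-5B −0.065, cox-19 −0.56, asg-1 −0.13, asg-2 −0.029, ndua-5 −0.29, nuo-2 −0.068, nduv-2 −0.20 and ndus-8 −0.11. Without the arrays numbered 3: cox-6A −0.0065, cox-6B −0.073, cox-5B −0.079, cox-19 −0.75, asg-1 −0.18, asg-2 −0.039, ndua-5 −0.32, nuo-2 −0.11, nduv-2 −0.26 and ndus-8 −0.15. After median centring: cyc-2.1 0.041, ucr-2.3 0.057, isp-1 0.036, cox-17 0.0064 and nduf-2.2 0.025. After quantile normalization: ucr-2.3 0.048, atp-3 −0.031 and atp-5 −0.055. atp-5 read −0.016 with the mean of all probe sets and −0.011 with plain ones. With 1 array left out the ranges were −0.64 to 0.059 for asb-1, −0.021 to 0.38 for asg-1, −0.0090 to 0.15 for asg-2, −0.042 to 0.045 for atp-3, −0.055 to 0.058 for atp-5, −0.48 to 0.21 for cox-17, −0.30 to 0.58 for cox-19, −0.046 to 0.17 for cox-5B, −0.015 to 0.21 for cox-6B, −0.072 to 0.019 for cyc-2.1, −0.35 to 0.069 for ndua-1, −0.12 to 0.32 for ndua-5, −0.057 to 0.00049 for nduf-2.2, −0.055 to 0.12 for ndus-8, −0.14 to 0.14 for nduv-2, −0.056 to 0.089 for nuo-2 and −0.31 to 0.15 for ucr-2.3. Apart from leaving out arrays and the weights, the cause of these changes was not tested.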
